A study of Mus musculus with 6 samples.

Results

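The regions described here are the 1075 ATAC-seq peaks of untreated mouse embryonic stem cells (mESCs) that lay inside chromatin loops classed as less ZBTB21-responsive and inside no loop classed as responsive. They make up 2.62% of the 41014 peaks that the authors deposited for this condition. Membership required that 1 bp or more of the peak fell between the outer edges of the 2 anchors of any of 500 less-responsive loops. Another 37 peaks met this rule but also overlapped a responsive loop and were left out. For comparison, 7900 peaks lay only inside the 500 responsive loops and 32002 lay outside all loops. ATAC-seq, in which the Tn5 transposase inserts adapters into accessible DNA, was carried out in untreated V6.5 mESCs (2 replicates), a mouse embryonic stem cell line grown on irradiated feeder fibroblasts with LIF. For its mESCs the paper lists LIF, CHIR99021 and PD0325901 in the medium and names no feeders. Which culture applies to these samples was not resolved. Libraries of ZBTB21-degron mESCs at 0 and 6 h (2 replicates each) were not analysed here, and the treatment text that all labels share describes doxycycline given to degron cells. The list was linked to the untreated replicates by its name alone and holds no values per replicate, so no test between samples was possible and the intervals below cover counting error only. The label was looked up with a list of 23 pluripotency regulator genes. Of these, 10 (43.5%) had a listed peak within 1 kb of a transcription start site (TSS), against 28.5% of all protein-coding genes. Axon guidance genes had the same share of 43.5%, so this count does not tell the cell type. The part of any feeder cells in the list was not tested.

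Cohesin extrudes DNA into loops whose anchors often carry CTCF, a zinc finger protein that halts extrusion. ZBTB21 is a DNA-binding protein with zinc fingers and a BTB domain. Promoters, enhancers and CTCF sites are the usual accessible elements of a genome, and long tracts with few genes, called gene deserts, hold accessible sites only here and there. Both classes were drawn by the study from loops longer than 500 kb, which it ranked by ZBTB21 signal and by the change of cohesin at the ATAC-seq peaks inside them. The less-responsive class is the lower end of this ranking among loops without ZBTB21 peaks and without sites of reduced cohesin. The number and the spacing of peaks in these loops are therefore not independent of how the loops were chosen, and are given as descriptions. The paper reports that ZBTB21 binds preferentially at gene promoters. Promoter shares, TSS distances, GC content and CpG may thus also depend on the choice of loops without ZBTB21 peaks, which was not tested. They too are descriptions.

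The sequences of 5 members are given as examples. Each was chosen for a high score within a group, and all 5 scores exceed the members' 90th percentile of 802.6. They are not typical members, whose median score was 674. They are 200 bases each on the forward strand of GRCm38 (RefSeq), the assembly that mm10 names, and they lie outside annotated exons. Capitals mark matches to the searched motifs. The first is the member with the highest score in a loop anchor among those with enough sequence outside exons, in the first intron of 2610002M06Rik (chrX:107815935-107816134), where the capitals mark an E-box. The second, upstream of a TSS of Elavl2 (chr4:91376540-91376739), has the highest score of all members. The third, 363 kb from Nr5a2 (chr1:137323719-137323918), has the highest score among members beyond 100 kb of a TSS. The fourth, 368 kb from Vrk2 (chr11:26961659-26961858), has the highest score among members with the CTCF consensus, which the capitals mark. The fifth, 42.5 kb from Olfr761 (chr17:37995674-37995873), has the highest score among members with the octamer, marked at its start.
2610002M06Rik: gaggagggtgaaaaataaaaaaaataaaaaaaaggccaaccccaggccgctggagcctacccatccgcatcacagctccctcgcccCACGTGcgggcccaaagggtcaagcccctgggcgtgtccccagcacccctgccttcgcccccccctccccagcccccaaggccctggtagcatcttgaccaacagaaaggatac
Elavl2: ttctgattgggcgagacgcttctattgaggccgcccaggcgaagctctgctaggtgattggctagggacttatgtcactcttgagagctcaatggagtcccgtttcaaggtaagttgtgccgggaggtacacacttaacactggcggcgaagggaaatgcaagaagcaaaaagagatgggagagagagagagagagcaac
Nr5a2: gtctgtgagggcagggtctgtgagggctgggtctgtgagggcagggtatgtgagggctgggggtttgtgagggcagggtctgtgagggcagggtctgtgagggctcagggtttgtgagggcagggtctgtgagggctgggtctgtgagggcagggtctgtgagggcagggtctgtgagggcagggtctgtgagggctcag
Vrk2: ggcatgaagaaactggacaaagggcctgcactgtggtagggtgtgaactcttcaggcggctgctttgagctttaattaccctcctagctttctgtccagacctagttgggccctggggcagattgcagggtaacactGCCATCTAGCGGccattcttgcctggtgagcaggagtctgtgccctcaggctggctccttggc
Olfr761: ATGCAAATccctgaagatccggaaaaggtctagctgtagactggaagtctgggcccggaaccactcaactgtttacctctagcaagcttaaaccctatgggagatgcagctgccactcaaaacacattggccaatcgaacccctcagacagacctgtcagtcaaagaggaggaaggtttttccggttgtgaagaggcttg

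The stretch near Nr5a2 was a tandem array, in which the letters TGTGAGGGC occurred 13 times in the 200 printed bases and 30 times in the 1157 bp of the peak. None of the printed bases was repeat-masked (0%) and none formed a CpG (0 sites), at a GC content of 65.0%. Such arrays were few among the members. A 9-base word occurred at least 5 times in the central 300 bases of 20 of 1075 members (1.86%, Wilson 95% interval 1.21 to 2.86%), against 2.07% of the whole list. The Elavl2 stretch held 8 CpG sites in 200 bases and the Vrk2 stretch held 2.

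Members of the less-responsive loops lay far from TSSs. The median distance from a member to the nearest TSS of a curated RefSeq transcript was 68.8 kb (95% interval of the median 60.8 to 79.7 kb), against 17.2 kb over the whole list (16.9 to 17.6 kb) and 17.9 kb inside responsive loops (17.2 to 18.6 kb). Of the members, 440 (40.9%, Wilson 95% interval 38.0 to 43.9%) lay beyond 100 kb of any TSS. The corresponding share was 9.19% inside responsive loops and 10.9% over the list. At distances from 1 to 10 kb the order was turned around, with 9.77% of members (8.13 to 11.7%), 22.1% of the peaks in responsive loops and 21.4% of the list. Promoters differed less, since 126 members (11.7%, 9.93 to 13.8%) lay within 1 kb of a TSS, against 13.9% in responsive loops and 15.6% of the list.

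**Figure D1:**
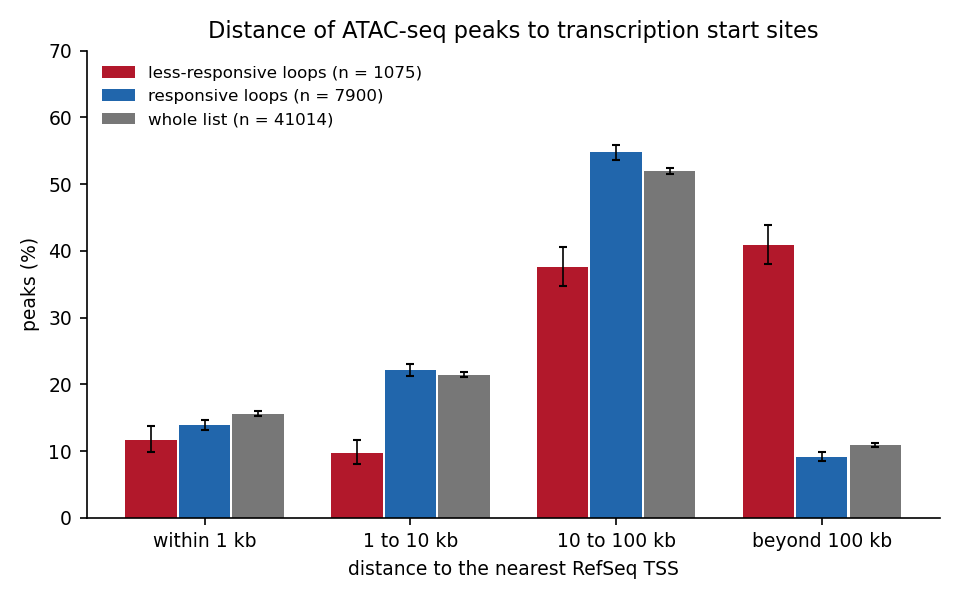
Percent of peaks in each range of distance to the nearest RefSeq TSS, for the members (red), the peaks of responsive loops (blue) and the whole list, which includes both (grey). Error bars are Wilson 95% intervals, which cover counting error only. The members stand above the other sets beyond 100 kb (40.9%) and below them from 1 to 100 kb.

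Intergenic members were the most frequent kind. They numbered 617 (57.4%, 54.4 to 60.3%), against 42.9% of the list, where intergenic means beyond 1 kb of a TSS and outside every protein-coding gene. Another 332 members (30.9%) lay in a gene body away from its TSSs. Counting promoters too, 452 members (42.0%, 39.1 to 45.0%) overlapped a protein-coding gene, against 54.8% in responsive loops and 55.5% of the list. Exons were overlapped by 146 members (13.6%) and by 22.4% of the list. The 65 members beyond 500 kb of a TSS were 6.05% of all members, against 0.909% of the list.

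Genes were sparse in these loops and many of them were chemosensory receptor genes, which are expressed in the nose and lie in large arrays. The merged less-responsive spans held a TSS of 1104 protein-coding genes, of which 342 (31.0%, 28.3 to 33.8%) were olfactory or vomeronasal receptor genes by their symbols. The share was 2.3% of 3170 genes in responsive spans and 7.02% of all 21000 genes. A listed peak lay within 1 kb of a TSS of 127 of the 1104 genes (11.5%, 9.75 to 13.5%), against 31.9% in responsive spans and 28.5% of all genes. With the receptor genes set aside, the share was 16.3% of 762 genes (13.8 to 19.1%), against 32.6% and 30.6%. No protein-coding gene overlapped 69 of the 500 loops, and 44 of these gene-free loops still held a member. Of the 500 responsive loops, 1 had no protein-coding gene. The median number of protein-coding genes per loop was 2 in less-responsive and 7 in responsive loops, at median spans of 700 kb and 800 kb.

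The members at promoters were ranked by their score. The score, a whole number of 540 or more over the list, was used only to rank peaks and to compare medians within it. How it was made is not given, so it is not read here as the strength of accessibility. Elavl2, a neuronal RNA-binding protein, had the highest score among the members (909, chr4:91376392-91376888). Mrpl50, a subunit of the mitochondrial ribosome, followed with a score of 906, and the same member also lay at the TSS of the zinc finger gene Zfp189. Col11a1, a fibrillar collagen chain, had a score of 900 and its member stood 400 kb from the next peak. Brinp2, a gene of the nervous system, had a score of 891, and Gria2, which encodes an AMPA receptor subunit, had 884. In these 5 cases the peak contained the TSS itself.

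Further promoters in this group belonged to the lysosomal protease gene Ctsc (score 883) and to Rab38 (874), a small GTPase of melanosome formation. These 2 members were each other's nearest peak, 151 kb apart. Abhd12, a lipid hydrolase, and Mtpn, which encodes myotrophin, both had a score of 879. Steap4, a metalloreductase, had 872, Cox7c, a subunit of cytochrome c oxidase, 862, and Mtm1, the phosphatase myotubularin, 840. Zfp606 (866) and Zfp551 (858), both zinc finger protein genes, were again a pair of neighbours with 55.2 kb between them. The others by the same rule were 2610002M06Rik (881), Mpp7 (871), Fam13a (862), Bche (848), Rhbdd1 (838) and Fam172a (823). The Mpp7 member stood apart in sequence, since its central 300 bases were repeat-masked throughout (100%) and had a ratio of observed to expected CpG of 1.44. It lay 551 bp from the TSS and overlapped no curated exon. At the other end, the member with the lowest score (540) lay 317 kb from Gli3.

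Of the 126 promoter members, 120 had a protein-coding gene and 5 a long non-coding RNA at their nearest TSS. The TSS lay within the peak for 106 members (9.86% of all, against 13% of the list).

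Gene lists were examined by how many of their genes with a TSS in a less-responsive span had a member within 1 kb of a TSS. Among the pluripotency regulators so placed, a member was found at Nr0b1 (score 612), which encodes the nuclear receptor DAX1. Axon guidance genes were represented by 4 of 6, the ephrin receptor genes Epha3 (747) and Epha5 (606) and the semaphorin genes Sema3a (757) and Sema5a (724). Over all 69 axon guidance genes, 30 (43.5%) had a listed peak at a promoter.

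Neurotransmitter receptor genes with a member included Gria2 (884) and Glra3 (713), a subunit of the glycine receptor. Over the 49 genes of this list, 9 had a listed peak (18.4%). Cadherin genes had a member in 2 of 3, Pcdh18 (712) and Pcdh20 (739), against 26 of 92 over the genome. Of the contactin and other synaptic adhesion genes, 12 of 51 over the genome had a listed peak. Of 7 voltage-gated channel genes, Cacna1c (771), a calcium channel subunit, had a member, which lay in an anchor. Of these 7 genes, 2 had any listed peak, against 34 of the 134 channel genes over the genome.

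Of 13 zinc finger protein genes, 7 had a member: Zfp189, Zfp551, Zfp606, Zfp936 (score 714), Zfp951 (697), Zfp975 (814) and Zfpm2 (636). Zfpm2, a cofactor of GATA factors, entered this list through its symbol alone. Over the genome, 203 of 466 genes of this list (43.6%) had a listed peak. Developmental transcription factor genes with a member included Tfap2d (695), and 52 of 239 genes of this list (21.8%) had a listed peak over the genome. Of 9 FGF, WNT, BMP and Nodal signalling genes, 2 had a member, the receptor genes Bmpr1b (818) and Fzd1 (549). Of these 9 genes, 4 had any listed peak, against 26 of 103 over the genome. The Fzd1 member was the widest of all members at 2115 bp. Of 11 solute carrier genes, 1 had a member, the amino acid transporter gene Slc6a14 (592), against 116 of 375. No ribosomal protein gene had its TSS in a less-responsive span (0 of 100), while 13 lay in responsive spans. Counts in the spans are not reported here for the pluripotency, neurotransmitter receptor, synaptic adhesion and developmental transcription factor lists. The fractions that are given thus cover only some of the lists. These lists are small in the spans, and no share among them was tested.

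Olfactory and vomeronasal receptor genes had a member at 3 of the 342 genes in the spans. These were Olfr658 (score 556), Olfr982 (595) and Olfr984 (577), all with scores under the members' median of 674. The members at Olfr982 and Olfr984 were neighbours, 26.7 kb apart. Over the genome, 8 of 1474 receptor genes had a listed peak (0.543%). Receptor genes have near-identical copies, so how reads were placed among them could affect these values.

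Some genes held several members at once, among them long genes such as Ntm and shorter ones such as Ccser2 (93.9 kb). A member overlapped 271 of the 1312 protein-coding genes that reach into the spans (20.7%, 18.6 to 22.9%), and 50 genes held 3 or more. These counts were not made per kb of gene, nor for responsive spans or all genes, so the part of gene length was not tested. The genes with 5 or more are named here, a choice made after the values were seen. Ntm, a neural cell adhesion gene of 969 kb on chromosome 9, held 8 members, none of them at a promoter or in an exon, with scores from 543 to 783. App, the amyloid precursor gene, held 5, of which 2 overlapped exons and 1 lay in an anchor. Dlg2, a scaffold gene of the postsynaptic density that spans 1973 kb, held 5 with scores from 635 to 797. Sdk1, a cell adhesion gene of the immunoglobulin family, held 5 (688 to 813), and so did Rbms3, an RNA-binding protein gene (555 to 788). Neither had a member at a promoter. Elavl2 held 5, of which 2 were at promoters and the nearest neighbours were 0.940 kb apart. The prohormone convertase gene Pcsk2, Ccser2 and the X-linked gene Nhs held 5 members each.

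Spacing varied widely among the members. The median distance to the nearest other peak of the list was 53.5 kb (47.4 to 60.3 kb), with the 10th percentile at 3.38 kb and the 90th at 271 kb. The median was 9.52 kb over the list and 8.16 kb in responsive loops. No other peak lay within 50 kb of 554 members (51.5%, 48.5 to 54.5%), against 11.1% of the list and 6.10% of the peaks in responsive loops. The word isolated thus fits a bare majority of the members by this distance, and 147 members (13.7%) had another peak within 5 kb. Within 100 kb no peak was listed for 365 members (34.0%), against 1.2% in responsive loops.

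**Figure D2:**
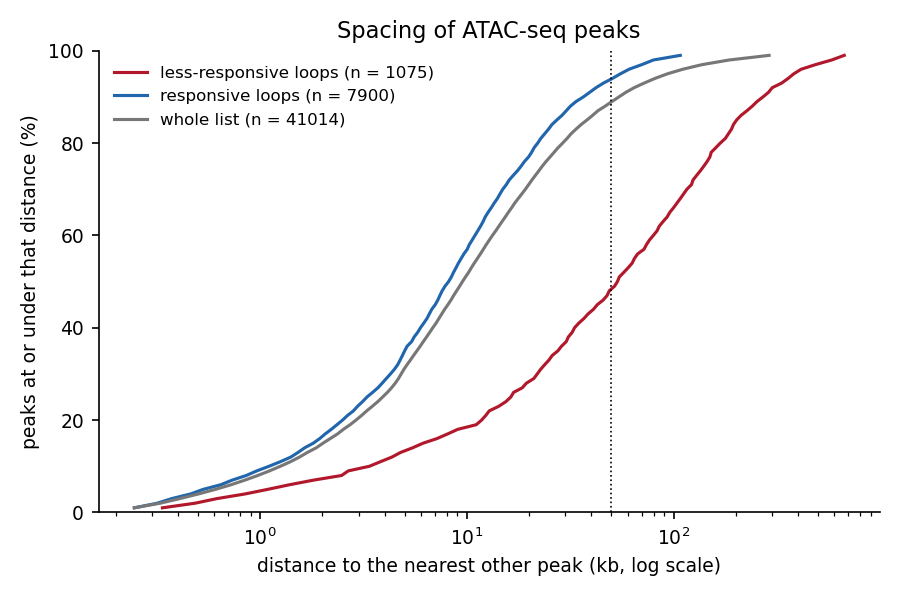
Percent of peaks whose nearest other peak lies at or under the distance on the x axis (kb, log scale), from the 1st to the 99th percentile, for the members (red), responsive loops (blue) and the whole list (grey). The dotted line marks 50 kb. The median is 53.5 kb for the members, 8.16 kb for responsive loops and 9.52 kb for the list.

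Among the members farthest from other peaks, one had no peak within 926 kb, a score of 591 and a width of 196 bp, and lay 709 kb from Slit2, a secreted axon guidance cue. Others lay closest to Gm20594 (888 kb to the next peak), the pigment enzyme gene Tyrp1 (868 kb), Tex13c1 (862 kb), the potassium channel gene Kcnh8 (761 kb), the transcription cofactor gene Dach1 (748 kb), Mdga2 (748 kb), the potassium channel gene Kcna4 (729 kb) and Nt5c1b (691 kb). All 9 lay in loop interiors. The member near Kcnh8 was within that gene, 40.1 kb from its start, and the other 8 were intergenic. Their scores ran from 579 near Dach1 to 803 near Kcna4.

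Scores and widths changed little with isolation. The 554 members with no peak within 50 kb had a median score of 673 (663 to 683) and a median width of 470 bp (452 to 502 bp). The 521 others had a median score of 675 (664 to 687) and a median width of 492 bp (472 to 511 bp), and both pairs of intervals overlapped. Isolated members lay farther from TSSs, with a median of 89.0 kb (73.5 to 103 kb) against 55.1 kb (44.2 to 65.9 kb). Isolated peaks of the whole list (4547) had a median distance of 54.3 kb (51.8 to 57.7 kb).

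Per loop, the counts were low and uneven. The 500 less-responsive loops spanned 500 to 2950 kb with a median of 700 kb. Of these, 105 held no member, 88 held 1 and 98 held 5 or more. The median was 2 members per loop, and 86 loops held no listed peak of any kind. Since loops overlap, 147 members lay in 2 or more of them, at most 4, which gave 1250 pairs of a member and a loop. The longest stretch without a peak had a median of 496 kb, or 64.7% of the span, against 157 kb, or 19.2%, in responsive loops.

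**Figure D3:**
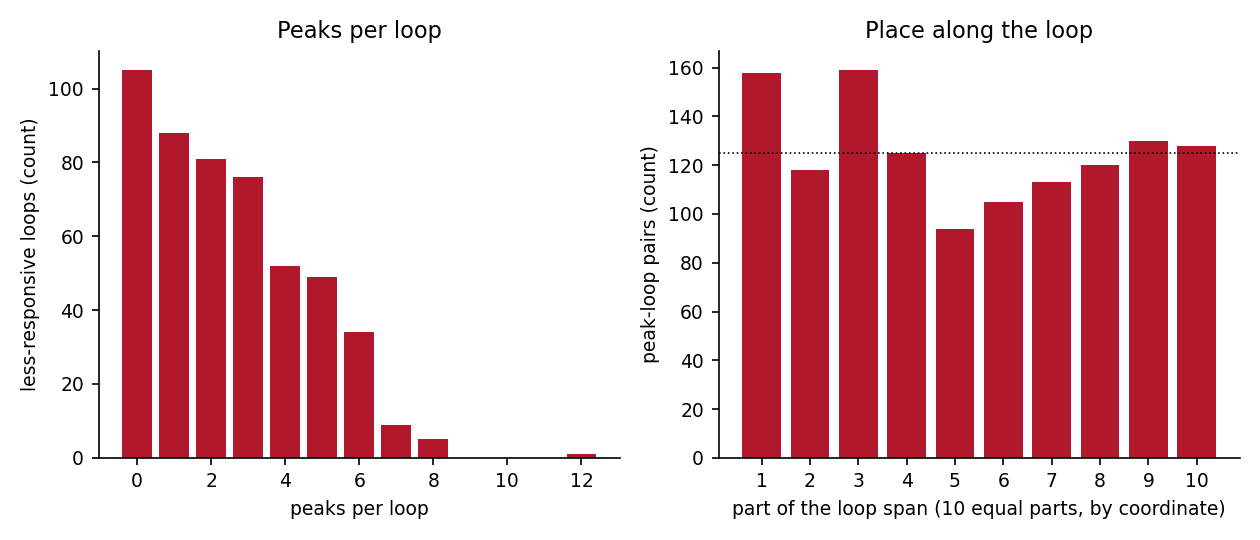
Left, the number of less-responsive loops (y axis) by the members they hold (x axis). Right, the 1250 pairs of a member and a loop by place, with each loop span cut into 10 equal parts by coordinate and the dotted line at the mean of the parts. Counts run from 94 near the middle to 159 in part 3, and 105 loops hold no member.

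Most members lay in loop interiors. Anchors of 25 kb held 114 members (10.6%, 8.90 to 12.6%) and made up 7.62% of the merged length of the spans, which was 316 Mb. This corresponds to 4.73 members per Mb of anchor and 3.29 per Mb elsewhere in the spans. In responsive loops the same densities were 37.2 and 27.2 peaks per Mb, with 10.8% of peaks in anchors. A member lay in both anchors of 6 loops and in 1 anchor of 98, while 291 loops held members in the interior alone. Of the pairs of a member and a loop, 22.9% fell in the first and last of 10 equal parts of the span, where an even spread would give 20%, and 15.9% fell in the central 2 parts.

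Anchor and interior members differed in their distance to TSSs. Members beyond 1 kb of a TSS had a median distance of 56.2 kb in anchors (42.4 to 79.7 kb, n = 102) and of 95.3 kb in interiors (85.1 to 105 kb, n = 847). Beyond 100 kb of a TSS lay 27.2% of anchor members and 42.6% of interior members. Anchor members also had closer neighbours, with a median of 38.9 kb to the nearest peak (28.2 to 51.8 kb) against 55.2 kb (49.0 to 64.0 kb), and these intervals overlapped. Median scores were 676 (657 to 698) in anchors and 674 (666 to 681) in interiors. The 5 anchor members with the highest scores were at the promoters of Gria2 (884), 2610002M06Rik (881) and Steap4 (872), within Zfp141 (867) and 363 kb from Nr5a2 (864). In the interior, Elavl2, Mrpl50, Col11a1 and Brinp2 were joined by a member in the body of Pramel13 (898), 3.54 kb from its TSS and 1.39 kb from the next peak.

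The loop with the most members lay on chromosome 7 (chr7:42475001-43300000) and held 12. It covers a cluster of zinc finger protein genes (Zfp141, Zfp977, Zfp976, Zfp975, Zfp936 and Zfp715) with the vomeronasal receptor genes Vmn2r62, Vmn2r63 and Vmn2r126, and with Gm17067, Gm17768, EU599041 and Gm35588. Its members had scores from 576 near Vmn2r63 to 867 within Zfp141, and 4 of them lay at a promoter. These were the members at Zfp975 (814), Gm17768 (821), Zfp936 (714) and Gm35588 (630). Genes of this cluster have near-identical copies, so how reads were placed among the copies could affect these peaks, which was not tested.

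Another 5 loops held 8 members each and are all described because they tied. One on chromosome 14 (chr14:36550001-37050000) covered Ccser2, Rgr and Lrit1, and 7 of its 8 members had Ccser2 as the nearest gene. The longest stretch without a peak still took up 312 kb of its 500 kb. One on X (chrX:105075001-106175000) covered Pbdc1, Magee1, Cypt2, Fgf16, the chromatin remodeller gene Atrx, Magt1, Cox7b, the copper transporter gene Atp7a and Tlr13, with promoter members at Pbdc1 (768, in an anchor) and Cox7b (561). One on chromosome 4 (chr4:63350001-63950000) covered Orm3, Orm2, Akna, Whrn, Atp6v1g1, Tmem268, Gm11213, Tex48, Tnfsf15 and Tnfsf8. In that loop 4 members lay at or within Akna, a gene for an AT-hook protein, with scores from 576 to 773. The loop on chromosome 15 (chr15:11425001-11950000) covered 1 protein-coding gene, the natriuretic peptide receptor gene Npr3, and none of its 8 members was at a promoter. The loop on chromosome 1 (chr1:138325001-139275000) covered Nek7, Lhx9, 2310009B15Rik, Dennd1b and Crb1, with the highest of its scores (817) within the kinase gene Nek7.

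Members were frequent on chromosome X, which held 10.5% of them (8.82 to 12.5%) and 1.85% of the list. Of its 759 peaks, 113 (14.9%) were members, and it carried 62 of the 500 less-responsive loops and 0 responsive loops. Among autosomes the share ran from 0.407% on chromosome 11 (13 of 3198 peaks) to 3.96% on chromosome 14 (61 of 1539). Members on X lay closer to TSSs, with a median of 18.3 kb (11.2 to 30.9 kb) against 79.2 kb (67.9 to 91.3 kb) on autosomes. Within 1 kb of a TSS lay 26.5% of X members and 9.98% of autosomal members. Of all X peaks in the list, 31.2% lay at promoters.

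Members were slightly narrower and had slightly lower scores than the list. Their median width was 485 bp (464 to 501 bp) against 547 bp, and their median score was 674 (667 to 682) against 696 over the list and 699 in responsive loops. The order was the same within each place. At promoters the median score was 715.5 (695 to 739) for the members and 740 for the list, in gene bodies 667.5 (655 to 683) and 688, and in intergenic sequence 671 (663 to 678) and 691. Promoter members were the widest, with a median of 697 bp (622 to 758 bp), against 450.5 bp in gene bodies and 471 bp in intergenic sequence. Beyond 100 kb of a TSS, the intervals of the median score overlapped, at 675.5 (666 to 685) for 440 members and 681 (676 to 685) for 4469 peaks of the list.

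**Figure D4:**
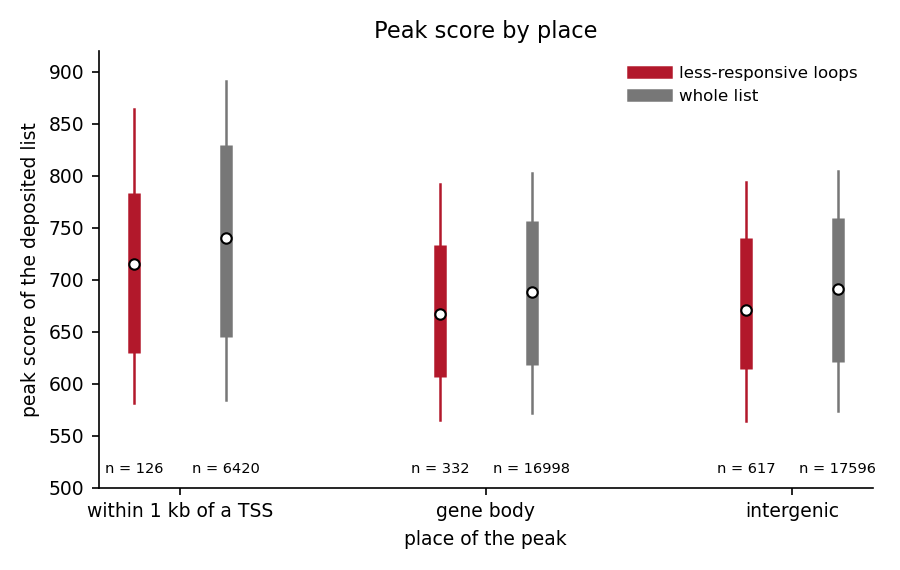
Peak score of the deposited list (y axis, drawn from 500) by the place of the peak, for the members (red) and the whole list (grey). Circles are medians, thick bars run from the 25th to the 75th percentile and thin lines from the 10th to the 90th. The members' medians lie under those of the list in each place, at 715.5 against 740 for promoters.

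The central 300 bases of the members were lower in GC and CpG than those of the list. The median GC content was 50.7% (50 to 51%) against 52.7%, and the median ratio of observed to expected CpG was 0.186 (0.172 to 0.201) against 0.248. Promoter members reached 57.3% GC and a CpG ratio of 0.575 (0.521 to 0.635), under the 60.0% and 0.682 of promoter peaks over the list. Repeat-masked bases took up a median of 14.3% of the members' windows (11.7 to 16%) against 8.33%. At least 50% of the window was masked in 233 members (21.7%, 19.3 to 24.2%), against 8.61% in responsive loops and 10.4% of the list. Of intergenic members the median masked share was 21.0% (17.3 to 27.0%), and of intergenic peaks over the list it was 12%.

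Of 12 motifs searched on both strands of these windows, 6 had a share in the distal members, those beyond 1 kb of a TSS, whose interval did not include the share of distal peaks over the list. The octamer, SOX and YY1 motifs lay above it, and the CTCF consensus, KLF and NRF1 motifs lay below it. Beyond 100 kb of a TSS, of these 6 only KLF kept such an interval (16.1% of members against 20.2% of the list). At that distance SOX stood at 3.18% in both sets, and YY1 at 1.14% of members (0.486 to 2.63%) against 0.559%. NRF1 was found there in 0 of 440 members (0 to 0.866%) against 0.380% of the list. The part of TSS distance in the 6 differences was not tested further. The octamer ATGCAAAT, which POU factors such as OCT4 bind, was found in 51 of the 949 distal members (5.37%, 4.11 to 7.0%), against 3.09% of distal peaks in responsive loops and 3.07% of those in the list. Beyond 100 kb of a TSS the shares were closer, at 5.91% of members and 4.68% of the list. The CTCF consensus was found in 49 distal members (5.16%, 3.93 to 6.76%), against 8.16% of distal peaks in responsive loops and 8.03% of those in the list. Distal members in anchors had it in 9 of 102 windows (8.82%, 4.71 to 15.9%) and those in interiors in 4.72%. Only 102 anchor windows were at hand, and the interval includes the interior share.

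The other motifs in the 949 distal windows gave the following shares, with the distal peaks of the list second. GGGNGTGG, of KLF factors, was found in 18.9% (16.5 to 21.5%) against 23.5%. TGANTCA, of AP-1, was found in 11.8% against 12.4%, and ACATTCC, of TEAD factors, in 8.75% (7.11 to 10.7%) against 7.15%. CCATTGTT, of SOX factors, stood at 3.06% (2.14 to 4.35%) against 2.01%, and the E-box CACGTG at 4.95% against 5.08%. TCAAGGTCA, of ESRRB, was found in 1.16% against 1.45%, AAGATGGCG, of YY1, in 0.843% (0.428 to 1.65%) against 0.402%, and CCGGAAGT, of ETS factors, in 0.421% against 0.801%. GCGCNTGCG, of NRF1, was found in 1 distal member (0.105%, 0.0186 to 0.594%) against 0.648%. The cyclic AMP response element TGACGTCA was found in 0 of 949 distal members (0 to 0.403%) against 0.396%, which this interval includes. Promoters included, it was found in 0 of 1075 members, against 0.675% of all peaks of the list and 2.18% of its promoter peaks. A count of 0 in 1075 allows a share of up to 0.356% by the Wilson interval. The AP-1, E-box and cyclic AMP motifs read the same on both strands. GC content differed between the sets as given above, and its part in these shares was not tested. A match only says that the letters are present.

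**Figure D5:**
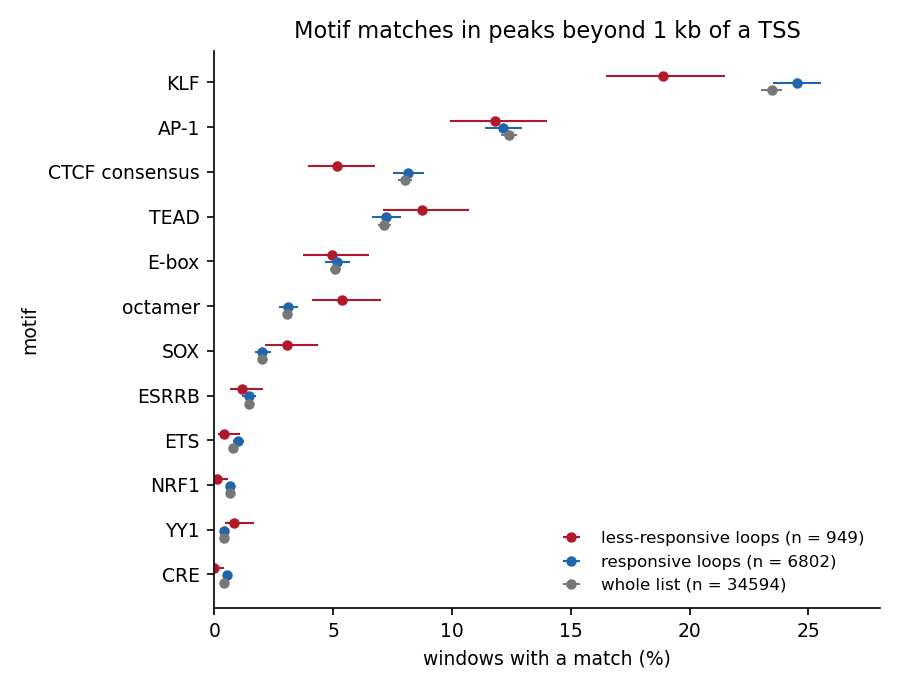
Percent of central 300-base windows with a match to each motif (x axis) in peaks beyond 1 kb of a TSS, for the members (red), responsive loops (blue) and the whole list (grey). Bars are Wilson 95% intervals. The members lie below the other sets for KLF and the CTCF consensus (5.16% against 8.03% of the list) and above them for the octamer (5.37% against 3.07%). Beyond 100 kb of a TSS, which is not drawn, the shares were closer. They were 4.55% against 5.15% for the CTCF consensus and 5.91% against 4.68% for the octamer.

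The 51 distal members with the octamer and the 898 without it had overlapping intervals in the measures given here. The intervals of the 51 were wide, so they cannot show that the groups are alike. Their median score was 682 (640 to 718) against 670 (662 to 676), and their median distance to a TSS was 105 kb (61.2 to 166 kb) against 89.0 kb (78.8 to 98.8 kb). The median distance to the nearest peak was 83.2 kb (39.8 to 129 kb) against 51.8 kb (45.4 to 59.5 kb), with overlapping intervals.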

How the data were processed

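The authors deposited 1 list of ATAC-seq peaks for the untreated condition, with coordinates in mm10 and a score per peak. How this score and the peaks were made is not given in the sources used here, nor is a shift of reads for the Tn5 cut. The submitters' processing notes name cutadapt 2.6, Bowtie2 2.3.5.1 and MACS2 2.1.1, with no role or order, and deepTools for part of the samples. For its ChIP-seq peaks the study filtered peaks by their reproducibility between replicates and removed blacklisted regions. A threshold of that kind would leave out weak accessible sites, and the placing of reads in repeats and gene families would change which peaks are listed there. Depth per replicate is unknown from these files, so no spread between replicates can be given. The number of per-sample columns left unused was 0.

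Loops of both classes were taken from the study's supplementary lists, with coordinates only. From the peak list, distances were computed edge to edge to TSSs of curated RefSeq transcripts (GRCm38.p6, 31603 positions) and to the nearest listed peak. GC content, CpG, repeat masking and 12 motifs were read in the 300 bases around each midpoint. The 12 gene lists and the motifs are named in the report. Intervals are Wilson intervals of shares and order-statistic intervals of medians at 95%, and no test was made. The functions were tested on simulated data (0 of 19 checks differed). Python 3.11.15, numpy 2.4.6, pandas 2.3.3, scipy 1.17.1 and matplotlib 3.10.9 were used.

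Genes were named by rule: the 20 promoter members with the highest scores, the 10 members farthest from other peaks, listed genes with a member within 1 kb, the loops with the most members (3, extended to ties), and the 5 highest scores in anchors and in interiors. Some genes and the regions beside them are not reported here. Printed windows were moved to hold the motif or to avoid exons. The Nr5a2 sequence and the genes with many members were added after the values were seen. The members and lists were chosen with earlier results of these data known. The alternatives concerned the overlap rule, the part of the loop, peaks of both classes, the score, merging, autosomes, TSSs, anchors and windows.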

Additional observations from a re-analysis of the deposited data

How the results depend on the processing

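Of 82 alternative values of 11 results, 69 stayed within 1.5 times the count or inside the interval given above. This tally includes settings that hardly changed the set and so could hardly move a value. Midpoint or full containment each left 1074 members, and merging within 500 bp left 1064. With only peaks above the list's median score of 696, the members numbered 436, the promoter share was 16.7%, the gene share 46.6%, the median distance to the nearest peak 138 kb, the share with no peak within 50 kb 75.7%, the median width 554 bp, the median score 764 and the median GC content 51.3%. A thinner list spaces all peaks more widely, and over the whole list this setting gave a median of 18.9 kb and a share of 24.3%. A promoter limit of 2.5 kb gave 14% of members, and protein-coding TSSs alone gave a median TSS distance of 95.6 kb. Anchors widened by 25 kb on each side held 18.9%, a limit of 100 kb left 34.0% of members without a neighbour, and whole peaks had a median GC content of 49.9%. Midpoint or full containment, interiors alone, peaks of both classes, merging within 500 bp and autosomes alone moved none of the results beyond its interval. No replicate could be left out and no paired analysis was possible because the list holds 1 condition and no values per replicate.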
